A study of Mus musculus with 16 samples.

Results

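The genes described here are 35 components of WNT signalling that sit at the cell surface, outside the cell or just inside it: 10 Frizzled receptors (Fzd1 to Fzd10), the co-receptors Lrp5 and Lrp6, the alternative receptors Ror1, Ror2 and Ryk, 6 secreted proteins that bind WNT ligands (Sfrp1, Sfrp2, Sfrp4, Sfrp5, Frzb and Wif1), 4 Dickkopf genes with the Dickkopf receptors Kremen1 and Kremen2, the WNT secretion factors Porcn and Wls, and the transducers Dvl1, Dvl2, Dvl3, Ctnnb1, Apc and Gsk3b. Members were chosen by name, and the Ensembl identifier of each row of the count table was matched to its symbol in GENCODE M21, which gave 35 of 54838 genes. All 35 had at least 1 count in some library, and 32 passed the filter on low counts and were tested. Dkk1, Dkk4 and Kremen2 did not pass.

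The libraries came from the adrenals of 16 mice, each aged 4 weeks and of mixed genetic background, with 4 mice in each of 4 groups: female control, female Rspo1 GOF (gain of function of the secreted WNT enhancer R-spondin 1), male control and male Rspo1 GOF. The labels name no promoter, transgene or Cre for the GOF genotype, and give no genotype detail for the controls beyond the word control. Libraries are numbered within their group in the order of deposit, so the numbers pair no mice.

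WNT ligands are lipid-modified by PORCN, carried to the surface by WLS and received by a Frizzled together with LRP5 or LRP6, after which Dishevelled proteins (DVL) stop GSK3B and APC from marking β-catenin for destruction. ROR1, ROR2 and RYK receive WNTs in signalling that does not need β-catenin. SFRP proteins, FRZB and WIF1 bind WNTs outside the cell, whereas DKK1 and relatives act on LRP5 and LRP6 with the help of Kremen proteins. R-spondins slow the removal of Frizzled receptors from the membrane, and in the adrenal cortex β-catenin activity is highest in the outer zone, beneath the capsule that supplies R-spondin.

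Library totals lay between 31275146 and 43003968 counts. Levels are given in CPM, which is counts per 1e6 counts after scaling of the libraries, and the deposited FPKM, which also divides by gene length and is the scale used to compare genes with each other. Rspo1 itself was at 3.19 to 40.5 CPM in female controls, 353 to 532 in GOF females, 19.4 to 48.2 in male controls and 534 to 971 in GOF males, so every GOF library lay above every control. Female control 1 and female control 3 held kidney tubule transcripts (summed level of 8 markers 967 and 159 CPM, against at most 2.40 in the other 14 libraries), and male control 2 held liver transcripts (6 markers, 7498 CPM against at most 47.6).

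By FPKM over all 16 libraries, the most abundant member was Ctnnb1, which encodes β-catenin, at a mean of 442 FPKM. The next was Frzb at 108 FPKM, a mean over groups that differ widely, then Lrp5 at 66.8, Lrp6 at 62.5, Ryk at 52.1 and Gsk3b at 49.0. Among Frizzled receptors no gene stood first in every group. Fzd4 led in the female controls at 14.7 ± 1.76 FPKM (SD, n = 4), with Fzd6 next at 12.2 ± 1.05. Fzd1 led in the female GOF group at 13.3 ± 1.55 FPKM, within the spread of Fzd6 (11.1 ± 2.47) and Fzd4 (10.9 ± 2.70). Fzd6 led in both male groups, at 15.3 ± 3.28 FPKM in controls and 17.03 ± 2.60 in GOF, again within the spread of Fzd1, the next gene. Fzd10 was the lowest Frizzled in every group, between 0.564 and 0.950 FPKM. The summed Frizzled level overlapped between all groups, at 63.9 ± 2.36 FPKM in female controls, 64.5 ± 5.95 in female GOF, 71.8 ± 8.43 in male controls and 67.9 ± 4.57 in male GOF (SD, n = 4 each).

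Promoter sequence was at hand in RefSeq (build GRCm38.p6) for 22 of the 35 members, with 23 windows of 250 bases before the RefSeq start. Fzd2, Fzd3, Fzd6, Fzd8, Lrp5, Lrp6, Sfrp1, Sfrp4, Dkk3, Dkk4, Kremen1, Porcn and Apc had none in that table. The windows were searched on both strands for 2 spellings of the TCF/LEF motif, through which β-catenin reaches DNA: CTTTGAA and CTTTGTT. Either spelling occurs in 9.17% of all 32851 windows (CTTTGAA in 4.46%, CTTTGTT in 5.03%). Among the member windows, CTTTGAA was in 1 of 23 and CTTTGTT in 2 of 23. The windows shown are those of the members on which the comparisons turn and of both members with a match, each printed 5′ to 3′ on the strand of the gene, with matches in capitals. Dkk1 (chr19:30549497-30549746, minus strand) held CTTTGAA at bases -117 to -111 and CTTTGTT at -98 to -92 from the RefSeq start. The GENCODE start of Dkk1, at base 30549665, lies within this window, and both matches lie inside the GENCODE gene. Fzd7 (chr1:59481897-59482146, plus strand) held CTTTGTT on the opposite strand, at -130 to -124, which reads AACAAAG on the printed strand. The RefSeq start of Fzd7 lies upstream of its GENCODE start, and the bases after it were not found in a GENCODE transcript of the gene, so the Fzd7 positions hold for the RefSeq start alone. Sfrp5 (chr19:42202253-42202502, minus strand), Dkk2 (chr3:132085042-132085291, plus strand), Frzb (chr2:80447397-80447646, minus strand) and Ror2 (chr13:53286125-53286374, minus strand) held neither spelling in these windows. The GENCODE start of Frzb, at base 80447625, lies within its window, so most of that window is inside the GENCODE gene.
Dkk1: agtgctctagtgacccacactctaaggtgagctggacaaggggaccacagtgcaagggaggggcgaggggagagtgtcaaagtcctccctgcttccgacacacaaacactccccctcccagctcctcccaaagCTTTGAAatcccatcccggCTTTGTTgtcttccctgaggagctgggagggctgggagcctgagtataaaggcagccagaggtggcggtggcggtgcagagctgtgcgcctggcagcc
Fzd7: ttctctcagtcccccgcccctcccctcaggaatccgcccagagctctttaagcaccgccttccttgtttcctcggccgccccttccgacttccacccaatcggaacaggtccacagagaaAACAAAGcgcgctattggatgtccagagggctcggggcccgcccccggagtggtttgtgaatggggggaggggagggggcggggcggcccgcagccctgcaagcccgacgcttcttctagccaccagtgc
Sfrp5: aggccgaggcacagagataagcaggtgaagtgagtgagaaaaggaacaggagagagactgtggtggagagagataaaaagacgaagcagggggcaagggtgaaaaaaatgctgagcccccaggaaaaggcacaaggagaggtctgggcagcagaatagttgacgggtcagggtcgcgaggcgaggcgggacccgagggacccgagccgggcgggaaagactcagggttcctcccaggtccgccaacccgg
Dkk2: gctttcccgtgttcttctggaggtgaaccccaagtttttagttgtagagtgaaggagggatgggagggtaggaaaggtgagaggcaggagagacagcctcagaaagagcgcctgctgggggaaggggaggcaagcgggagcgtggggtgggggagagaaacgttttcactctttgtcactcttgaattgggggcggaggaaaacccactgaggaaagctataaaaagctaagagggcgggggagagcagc
Frzb: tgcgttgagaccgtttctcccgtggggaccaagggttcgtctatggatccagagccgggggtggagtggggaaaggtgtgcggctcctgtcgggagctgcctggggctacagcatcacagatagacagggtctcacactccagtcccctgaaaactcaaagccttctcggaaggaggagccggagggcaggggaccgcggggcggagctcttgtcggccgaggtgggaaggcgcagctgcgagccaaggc
Ror2: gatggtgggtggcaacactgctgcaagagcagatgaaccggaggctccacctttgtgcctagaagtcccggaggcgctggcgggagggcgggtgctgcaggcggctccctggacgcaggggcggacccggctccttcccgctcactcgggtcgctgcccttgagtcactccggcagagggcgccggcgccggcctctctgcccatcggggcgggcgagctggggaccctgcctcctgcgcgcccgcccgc
The median GC content of the member windows was 65.2%, and that of all windows 52.4%. A match is a match of letters only.

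The first question is what the gain of Rspo1 did to these genes within each sex. In both sexes 5 genes of the secreted SFRP and Dickkopf families fell: Sfrp1, Sfrp4, Sfrp5, Dkk2 and Dkk3. They were lower in GOF than in control libraries by 2.69- to 5.17-fold in females and by 2.70- to 8.21-fold in males. The upper end in males is Sfrp5, whose log2 change of -3.04 was -2.27 without male control 2, the library with liver transcripts. The Frizzled Fzd2 and the Dickkopf receptor Kremen1 were lower in both sexes by less. No member rose in both sexes, which 7.19% of all tested genes did. This rests on the scaling used here, by which 1 member rose in males, against 5 with upper-quartile scaling. The receptors Ror1, Ror2, Ryk, Fzd1 and Fzd3 and the transducer Dvl2 passed as higher in females. Fzd7, Fzd9, Ror2, the antagonists Sfrp2 and Wif1 and the transducer Gsk3b passed as lower in males, and the transducer Dvl1 as higher. A difference between the sexes in the change itself passed its own test for Ror2, Fzd7 and Dvl2 only, in the fit of all 16 libraries.

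In females 13 of 32 tested members passed an adjusted p of 0.05 (quasi-likelihood test of edgeR, adjusted by Benjamini-Hochberg across every tested gene), 6 higher and 7 lower, or 40.6%, against 39.6% of all 18214 tested genes (20.6% were lower). In males 14 of 32 passed, 1 higher and 13 lower, or 43.8%, against 36.9% of all tested genes (15.2% higher, 21.8% lower). The male split depended on the scaling. With upper-quartile factors, which change the scaling alone, it was 5 higher and 11 lower. Of all gene calls 51.2% were then higher, against 41.1% with the scaling used here. The split was 2 and 12 with RLE factors, 5 and 12 with voom, and 3 and 12 with DESeq2. With limma on log2(FPKM + 1), a fit that differs in scale, test and gene filter together, the male split was 7 higher and 8 lower, and 61.3% of all calls were higher. The share of members called was thus near the background in females and somewhat above it in males. The median log2 change of the 32 members was -0.04 in females (all genes 0.05) and -0.13 in males (all genes 0.01). In females, 6 members had every GOF library above every control and 7 every GOF library below; in males these counts were 1 and 10. Over all tested genes, groups that do not overlap made up 37.8% in females and 33.1% in males. In both sexes 7 of 32 members fell (21.9%), against 14.5% of all tested genes, and these contrasts share no library.

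Of the 6 WNT-binding antagonists 3 fell in females and 5 in males, and all 3 tested genes of the Dickkopf and Kremen group fell in both sexes. Of the 10 Frizzled receptors 2 rose and 1 fell in females, and 3 fell in males. All 3 alternative receptors rose in females and 1 of them fell in males, while the co-receptors and the secretion factors gave no call under GOF in either sex. Among the 6 transducers 1 rose in females, and 1 rose and 1 fell in males. Fzd4, Fzd10, Lrp6, Dvl3, Ctnnb1 and Apc were not called in any comparison.

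**Figure D1:**
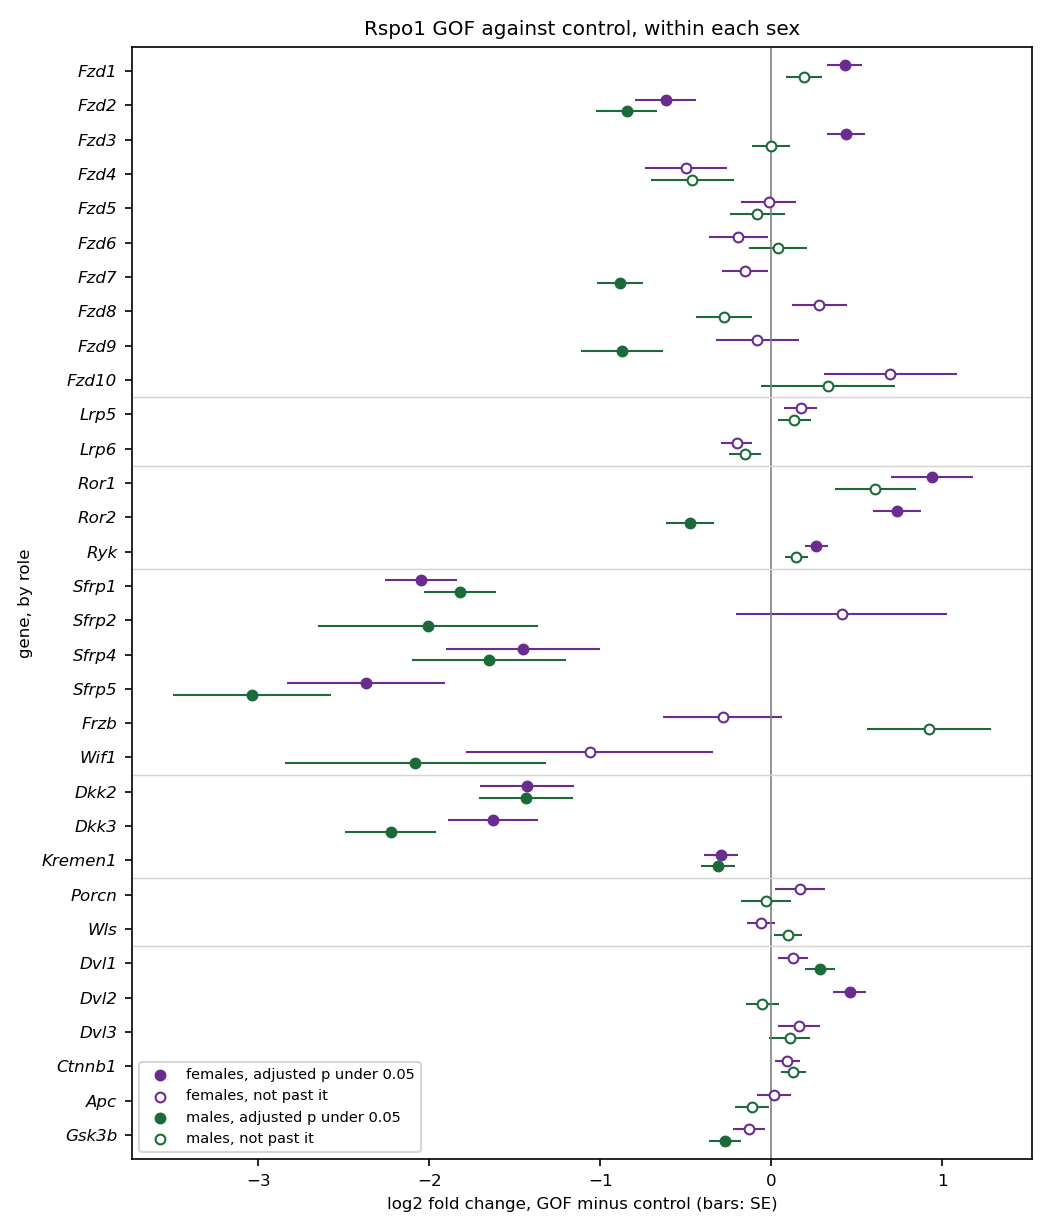
Log2 fold change of GOF against control (x axis) for the 32 tested members (y axis, grouped by role), females in purple and males in green, with bars of 1 standard error and filled points past an adjusted p of 0.05. Sfrp1, Sfrp4, Sfrp5, Dkk2 and Dkk3 lie left of -1 in both sexes, and Ror2 lies at 0.73 in females and -0.47 in males.

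Sfrp1 (ENSMUSG00000031548, chr8:23411502-23449632 on GRCm38, plus strand) encodes the secreted Frizzled-related protein with the highest FPKM in male controls and the highest after Frzb in female controls. The female controls were at 73.1, 48.7, 71.3 and 77.6 CPM and the female GOF libraries at 10.8, 22.4, 15.2 and 16.97. The male controls were at 51.8, 75.4, 81.3 and 80.3 CPM and the male GOF libraries at 21.98, 20.1, 22.4 and 17.2. In each sex the lowest control lay above the highest GOF library. The log2 change was -2.05 ± 0.211 (SE) in females (adjusted p = 6.44e-06, edgeR) and -1.82 ± 0.209 in males (adjusted p = 1.12e-05, edgeR).

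Sfrp5 (chr19:42197971-42202252, minus strand), a close relative of Sfrp1, had the largest drop of the members tested. Its levels were 2.93, 3.68, 4.52 and 4.37 CPM in female controls and 0.467, 0.984, 0.955 and 0.571 in female GOF. In males they were 5.99, 24.6, 7.69 and 5.68 CPM in controls and 1.88, 0.856, 1.10 and 1.51 in GOF. The groups did not overlap in either sex, and male control 2, the library with liver transcripts, was far above the other male controls. The log2 change was -2.37 ± 0.461 in females (adjusted p = 0.000994, edgeR) and -3.04 ± 0.463 in males (adjusted p = 0.000133, edgeR). Without male control 2 the male change in Sfrp5 was -2.27 (adjusted p = 6.15e-05, edgeR).

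Sfrp4 (chr13:19623104-19632994, plus strand), the third of this family to fall in both sexes, was at low levels throughout. Female controls were at 3.98, 2.81, 4.27 and 6.48 CPM and female GOF libraries at 0.555, 2.01, 2.54 and 1.29. Male controls were at 4.21, 5.73, 7.20 and 5.27 CPM and male GOF libraries at 1.24, 1.06, 1.301 and 3.53. The groups were separate in both sexes, in females by a narrow margin. The log2 change of Sfrp4 was -1.45 ± 0.451 in females (adjusted p = 0.0191, edgeR), and -1.20 (adjusted p = 0.0603) without female control 4. In males it was -1.65 ± 0.452 (adjusted p = 0.0104, edgeR).

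Dkk3 (chr7:112116017-112159057, minus strand), the divergent member of the Dickkopf family and its most abundant one here, fell in both sexes. Female controls were at 49.5, 50.5, 44.3 and 46.7 CPM and female GOF libraries at 15.5, 14.7, 17.96 and 13.6. Male controls were at 54.9, 152, 61.9 and 56.7 CPM and male GOF libraries at 19.8, 16.8, 17.1 and 15.8. All 8 GOF libraries lay below all 8 controls. The log2 change of Dkk3 was -1.63 ± 0.263 in females (adjusted p = 0.000248, edgeR) and -2.23 ± 0.267 in males (adjusted p = 1.77e-05, edgeR), the latter being -1.74 (adjusted p = 2.1e-07) without male control 2.

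Dkk2 (chr3:132085292-132180304, plus strand), a Dickkopf that binds LRP5 and LRP6, was at 8.97, 7.29, 7.20 and 7.77 CPM in female controls and 2.45, 3.55, 2.09 and 3.48 in female GOF. In males it was at 8.33, 18.4, 14.02 and 13.5 CPM in controls and 7.71, 3.48, 5.05 and 3.86 in GOF. The 2 male groups came close at 8.33 and 7.71 CPM and did not overlap. The log2 change was -1.43 in both sexes, ± 0.277 in females (adjusted p = 0.00097, edgeR) and ± 0.275 in males (adjusted p = 0.000913, edgeR). Dkk1 had at most 4 counts in every library but male control 2, where it stood at 9.73 CPM, and Dkk4 had 1 count in all, so neither allowed a comparison. Kremen2 had 12 counts or fewer in every library.

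Kremen1 (chr11:5191552-5261558, minus strand), the receptor that works with Dickkopf proteins, fell by 0.30 ± 0.0991 on the log2 scale in females (adjusted p = 0.0277, edgeR) and by 0.31 ± 0.099 in males (adjusted p = 0.0217, edgeR). Female controls were at 49.0 to 52.5 CPM and female GOF libraries at 37.7 to 46.4, while the male groups overlapped. The call was lost without any of 5 libraries in females (female control 1, 2 or 4, female GOF 1 or 4, adjusted p 0.0508 to 0.0619) and without any of 3 in males (male control 3 or 4, male GOF 2, adjusted p 0.053 to 0.0681).

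**Figure D2:**
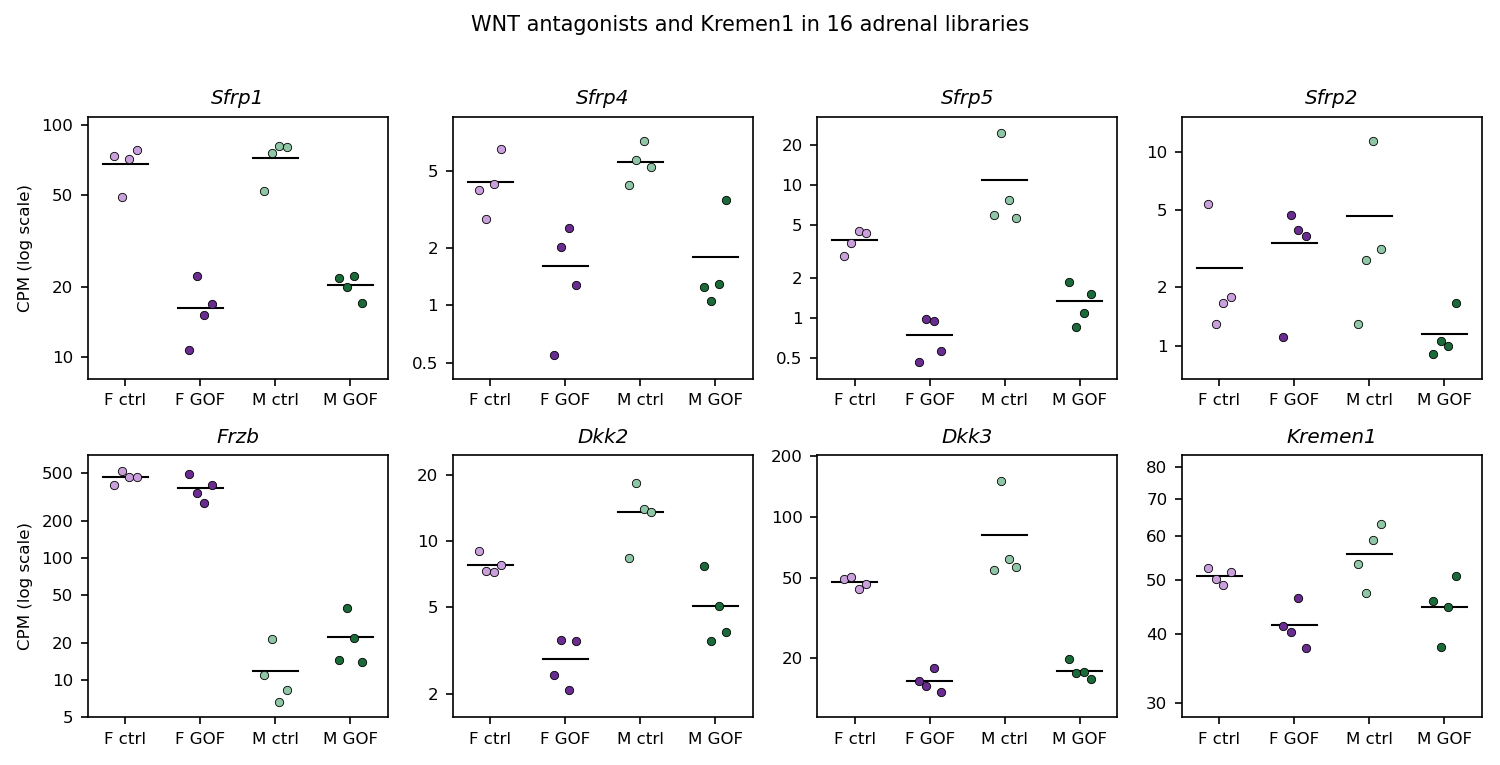
CPM on a log axis (y) of 7 genes of the SFRP and Dickkopf families and Kremen1 in each of the 16 libraries (points), by group (x: F ctrl, F GOF, M ctrl, M GOF), with the group mean as a line. Sfrp1, Sfrp5, Dkk2 and Dkk3 are lower in every GOF library than in every control of the same sex, and Frzb separates the sexes instead.

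Sfrp2 and Wif1 passed only in males, and both rested on few reads or few libraries. Sfrp2 (chr3:83766321-83774316, plus strand) was at 1.29, 2.78, 11.4 and 3.15 CPM in male controls and 0.900, 1.06, 1.001 and 1.66 in male GOF, so the groups overlapped. Its female values also spread widely, from 1.29 to 5.36 CPM in controls and from 1.11 to 4.71 in GOF. The male log2 change of Sfrp2 was -2.01 ± 0.643 (adjusted p = 0.024, edgeR), and -1.06 (adjusted p = 0.148) without male control 3. It also missed the threshold without male GOF 1, 2 or 3, with adjusted p 0.0541 to 0.0611. Wif1, which binds WNTs through a domain of its own, had 19 counts or fewer in every library, and its male change of -2.08 ± 0.763 (adjusted p = 0.0437, edgeR) held in 5 of 16 fits that each left out 1 library. The interaction of sex and genotype, which tests the difference of the 2 changes, was not past the threshold for Sfrp2 (-2.42, adjusted p = 0.14, edgeR) or Wif1 (-1.02, adjusted p = 0.621, edgeR).

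Frzb (ENSMUSG00000027004, chr2:80411970-80447625, minus strand), also called sFRP3, did not follow the other antagonists. In females it was at 394, 522, 463 and 461 CPM in controls and 485, 344, 284 and 397 in GOF, groups that overlapped, with a log2 change of -0.28 ± 0.349 (95% interval -1.03 to 0.46, adjusted p = 0.543, edgeR). In males it was at 11.04, 21.6, 6.61 and 8.28 CPM in controls and 14.6, 39.3, 22.2 and 13.97 in GOF. The male change was 0.92 ± 0.363, short of the threshold (adjusted p = 0.0599, edgeR). The male value depended on single libraries: without male control 2 it was 1.38 (adjusted p = 0.00491), and it passed as well without male GOF 1 or male GOF 4. Upper-quartile scaling, DESeq2 and other fits also called it.

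Several lists of cell type markers fell along with Sfrp1, Sfrp4, Sfrp5, Dkk2 and Dkk3, and others did not. Of 8 markers of the adrenal capsule and stroma, 7 fell in GOF females and 8 in GOF males. Rspo3 is among them and is also counted below with the other pathway genes. The 8 markers had summed levels of 987 to 1182 CPM in control females, 250 to 605 in GOF females, 1281 to 4006 in control males and 591 to 738 in GOF males. All 8 markers of the medulla fell in both sexes, from 4771 to 10844 CPM down to 197 to 768 in females, and from 7598 to 11454 down to 395 to 883 in males. All 5 Schwann cell markers fell in both sexes, from 21.8 to 82.8 CPM down to 6.81 to 9.70 in females and from 35.3 to 193 down to 8.28 to 9.69 in males. Of 7 adipocyte markers, 6 fell in females (1976 to 2471 CPM in controls, 474 to 989 in GOF) and 7 in males (2423 to 4979 and 383 to 490.3). None of these markers was at 0 in any group. Other lists did not fall as a whole under GOF. Of 5 endothelial markers, 0 passed in either sex. Of 4 macrophage markers, 1 rose in each sex and 0 fell. Of 5 steroidogenic genes shared by the cortical zones, 2 rose and 1 fell in each sex. Of 4 markers of the zona fasciculata, the middle cortical zone, 2 fell in females and 0 passed in males. The X-zone and the zona glomerulosa are described below. In whole glands, fewer cells of a type and less RNA per cell cannot be told apart. The part of any of these cell types in the fall of the SFRP and Dickkopf genes was not tested.

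Among the receptors, Ror2 (ENSMUSG00000021464, chr13:53109312-53286124, minus strand), a receptor tyrosine kinase-like protein for WNT5A, was the only one of the 32 tested members called in opposite directions in the 2 sexes, against 109 of all 18214 genes. It was at 10.6, 9.09, 12.3 and 11.6 CPM in female controls and rose to 13.9, 17.3, 19.2 and 22.3 in female GOF. In males it was at 15.1, 15.5, 17.7 and 14.5 CPM in controls and fell to 12.4, 11.7, 9.86 and 11.2 in GOF. In neither sex did GOF and control overlap. The log2 change of Ror2 was 0.73 ± 0.142 in females (adjusted p = 0.00093, edgeR) and -0.47 ± 0.141 in males (adjusted p = 0.0165, edgeR). Without male control 3 the male change was -0.41 (adjusted p = 0.0527), and limma on FPKM did not call it.

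The interaction term tests whether the change differed between the sexes. It was past the threshold for 3 of 32 members (9.38%, against 4.21% of all tested genes, 1.59% higher and 2.61% lower), all 3 with a lower change in males, and for Ror2 it was -1.21 ± 0.2 (adjusted p = 0.00451, edgeR). The Ror2 interaction was called in all 16 fits that left out a library, with values from -1.32 to -1.07, and in all 10 other settings. For Fzd7 it was -0.73 ± 0.19 (adjusted p = 0.042, edgeR) and for Dvl2 -0.51 ± 0.136 (adjusted p = 0.0478, edgeR). Those of Fzd7 and Dvl2 held in only 3 and 4 of the 16 leave-one-out fits, with adjusted p up to 0.118 and 0.133. Their values stayed between -0.81 and -0.64 for Fzd7 and between -0.59 and -0.43 for Dvl2. Without male control 2, the library with liver transcripts, 1 member passed with a higher change in males and 1 with a lower change.

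Fzd7 (chr1:59482424-59486955, plus strand), a Frizzled that couples to β-catenin signalling, stood at 33.4, 34.3, 41.4 and 32.9 CPM in male controls and 20.3, 22.7, 17.3 and 16.5 in male GOF. In females the controls were at 32.4, 26.6, 26.97 and 32.2 CPM and the GOF libraries at 31.5, 20.7, 27.3 and 26.7. Male GOF libraries lay below all male controls, and the female groups overlapped. The log2 change was -0.89 ± 0.135 in males (adjusted p = 0.000134, edgeR) and -0.15 ± 0.134 in females (95% interval -0.44 to 0.13, adjusted p = 0.381, edgeR).

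Fzd9 (chr5:135248938-135251230, minus strand), a Frizzled at low level, was at 9.90, 5.38, 9.30 and 6.25 CPM in male controls and 5.14, 4.51, 4.10 and 3.05 in male GOF. In females it was at 3.34, 2.81, 3.63 and 3.55 CPM in controls and 4.03, 2.13, 3.49 and 2.94 in GOF. It fell in males by 0.87 ± 0.241 on the log2 scale (adjusted p = 0.0109, edgeR), and the female change of -0.08 ± 0.242 did not pass (adjusted p = 0.812, edgeR). The interaction for Fzd9 was -0.79 ± 0.342 (adjusted p = 0.207, edgeR). Fzd2, whose product also binds WNT5A, fell by 0.62 ± 0.177 in females and by 0.85 ± 0.178 in males (adjusted p = 0.0124 and 0.00181, edgeR). It was at 13.96 to 18.7 CPM in control females, 6.82 to 13.9 in GOF females, 17.8 to 21.3 in control males and 9.19 to 12.2 in GOF males.

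Among the receptors that rose in females, Ror1, the paralog of Ror2, had the largest change. It was at 8.94, 8.09, 5.81 and 11.03 CPM in female controls and 15.8, 11.6, 19.96 and 17.6 in female GOF (log2 change 0.94 ± 0.239, adjusted p = 0.00631, edgeR). In males Ror1 was at 8.18 to 12.7 CPM in controls and 10.3 to 20.97 in GOF, a change of 0.61 ± 0.238 that fell short of the threshold (adjusted p = 0.0572, edgeR). The interaction for Ror1, -0.33 ± 0.336, was not past the threshold (adjusted p = 0.615, edgeR). Fzd1 and Fzd3 each rose by 0.43 in females (SE 0.104 and 0.11, adjusted p = 0.00477 and 0.00608, edgeR). Their male changes were 0.19 ± 0.104 and -0.00324 ± 0.109 (adjusted p = 0.162 and 0.986, edgeR), and their interactions of -0.24 and -0.44 did not pass (adjusted p = 0.385 and 0.127, edgeR).

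Ryk (chr9:102834917-102908305, plus strand), the most abundant alternative receptor by FPKM, was held in a narrow band. Female controls were at 73.7, 74.6, 72.4 and 72.7 CPM and female GOF libraries at 84.7, 86.7, 97.0 and 83.8, without overlap. The log2 change was 0.26 ± 0.0679 in females (adjusted p = 0.00679, edgeR), and 0.18 (adjusted p = 0.0647) without female GOF 3. In males Ryk changed by 0.15 ± 0.0677 (adjusted p = 0.105, edgeR). With the 3 libraries that held kidney or liver transcripts left out, the share of all genes called in females fell from 39.6% to 24.1%, and 7 of the 13 female calls of members remained, namely Sfrp1, Sfrp5, Dkk2, Dkk3, Ror2, Fzd1 and Dvl2, and Sfrp4, Ror1, Ryk, Fzd2, Fzd3 and Kremen1 missed the threshold with adjusted p of 0.0603 to 0.0817 and changes in the same direction. In GOF males 12 of the 14 calls remained, without Wif1 and Gsk3b, where the share of all genes fell from 36.9% to 25.7%.

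**Figure D3:**
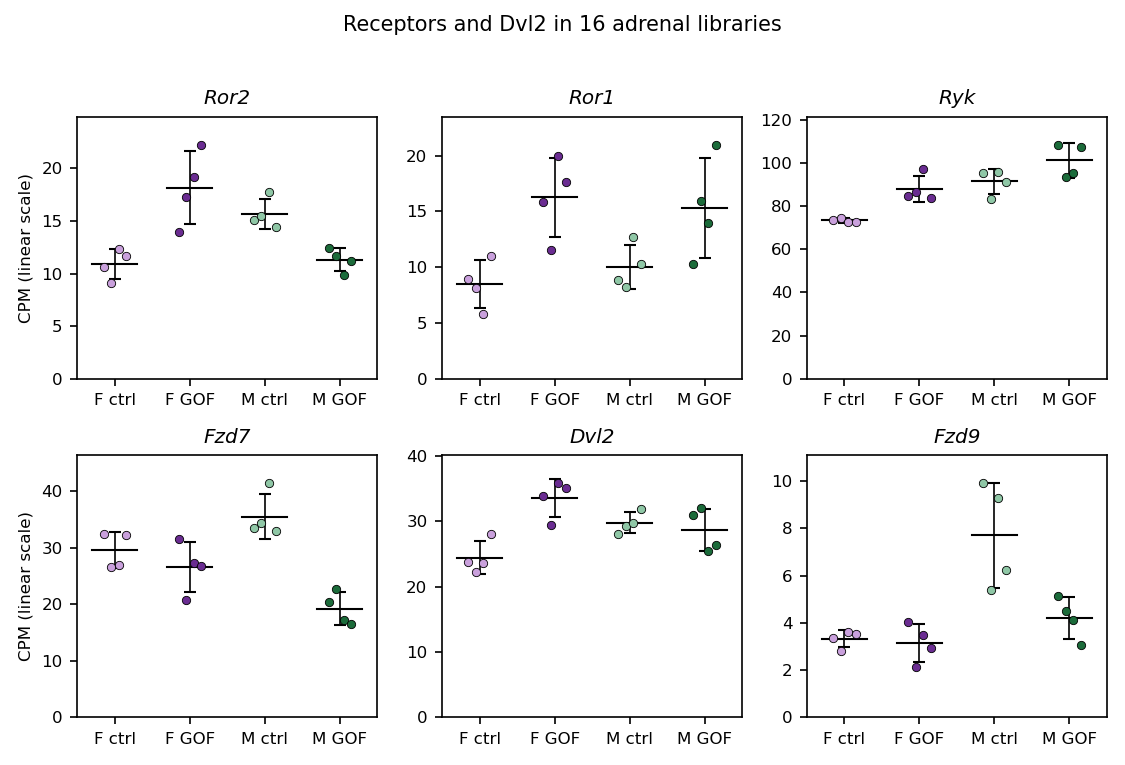
CPM on a linear axis from 0 (y) of Ror2, Ror1, Ryk, Fzd7, Dvl2 and Fzd9 in each library (points), by group (x), with mean and SD bars. Ror2 is higher in GOF females (13.9 to 22.3 CPM) than in their controls (9.09 to 12.3), and lower in GOF males (9.86 to 12.4) than in theirs (14.5 to 17.7).

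Of the co-receptors and transducers, few passed under GOF. Lrp5 and Lrp6 were not past the threshold in either sex, with log2 changes of 0.17 and -0.20 in females and 0.13 and -0.15 in males (adjusted p 0.0947 to 0.301, edgeR). Ctnnb1, the most abundant member, was at 588 to 609 CPM in female controls and 590.2 to 658 in female GOF, a log2 change of 0.09 ± 0.0724 (adjusted p = 0.322, edgeR). In males it was at 578 to 700.4 CPM in controls and 638 to 723 in GOF (0.13 ± 0.0724, adjusted p = 0.181, edgeR). The 95% intervals of the change in Ctnnb1 were -0.06 to 0.25 in females and -0.03 to 0.28 in males.

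Dvl2 (chr11:70000595-70012301, plus strand), a Dishevelled adaptor, was at 23.8, 22.3, 23.6 and 28.1 CPM in female controls and 33.9, 29.4, 35.8 and 35.2 in female GOF. It rose by 0.46 ± 0.0964 in females (adjusted p = 0.00178, edgeR) and was -0.05 ± 0.0962 in males (adjusted p = 0.703, edgeR). Its exons share 18.3% of their bases with Acadvl on the opposite strand, and since the strand setting of the counting is not stated, reads there may belong to either gene. The same holds for 17.8% of the exon bases of Fzd5, 16.1% of Sfrp2 and 14.6% of Ctnnb1. Dvl1 (chr4:155847402-155859303, plus strand), the most abundant Dishevelled by FPKM, was at 76.5, 80.5, 67.2 and 80.0 CPM in male controls and 83.3, 91.7, 104 and 91.5 in male GOF (log2 change 0.28 ± 0.0874, adjusted p = 0.0195, edgeR). That call for Dvl1 was lost without male control 3 (0.23, adjusted p = 0.0667) or male GOF 3 (0.21, adjusted p = 0.088). Gsk3b fell by 0.27 ± 0.0938 in males (adjusted p = 0.0351, edgeR), a call that held in 1 of 11 other settings.

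Other genes of the pathway were described from a list of 74 ligands, R-spondin system genes, inhibitors, nuclear and planar polarity genes. Of these 66 were tested, and 40 were called in GOF females (15 higher, 25 lower) and 43 in GOF males (9 higher, 34 lower), where 39.6% and 36.9% of all tested genes were called. Their median log2 change was -0.30 in females and -0.40 in males. In both sexes 24 fell and 6 rose (14.5% and 7.19% of all tested genes did so), and 1 went opposite ways: Wnt4, the ligand made in the outer cortex, with 0.69 ± 0.184 in females (adjusted p = 0.00825, edgeR) and -0.80 ± 0.184 in males (adjusted p = 0.00353, edgeR). These counts include Rspo1 itself, among the genes that rose. Sostdc1, an antagonist that binds LRP co-receptors, changed by -4.41 in females and -4.13 in males, and the R-spondin receptors Lgr5 by -3.68 and -4.08 and Lgr6 by -2.65 and -3.29. Rspo3, the R-spondin of the capsule, fell by 3.34 and 3.33, and Celsr3, a cadherin of planar polarity, by 3.12 and 3.68. The ligands Wnt6 (-2.46 and -2.20) and Wnt10a (-2.29 and -2.36) fell too, all 7 of these genes with adjusted p at most 0.000881 (edgeR).

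The second question is how the sexes differed. Males had much less Frzb than females, by 38.7-fold in controls and by 16.8-fold in GOF. They had more Lrp5 and Porcn in both genotypes, by 1.61- to 1.85-fold, and more Fzd5 and less Fzd8. In controls 15 of 32 members passed (13 higher in males, 2 lower), or 46.9%, against 23.4% of all tested genes (13.5% higher, 9.89% lower). In GOF 14 passed (9 higher, 5 lower), or 43.8%, against 29.6% (13.3% higher, 16.3% lower). The median log2 difference, male minus female, was 0.27 in controls (all genes 0.08) and 0.11 in GOF (all genes 0.03). Male and female groups did not overlap for 13 members in controls (11 above, 2 below) and 9 in GOF (5 above, 4 below), while 25.3% and 29.1% of all tested genes did not.

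**Figure D4:**
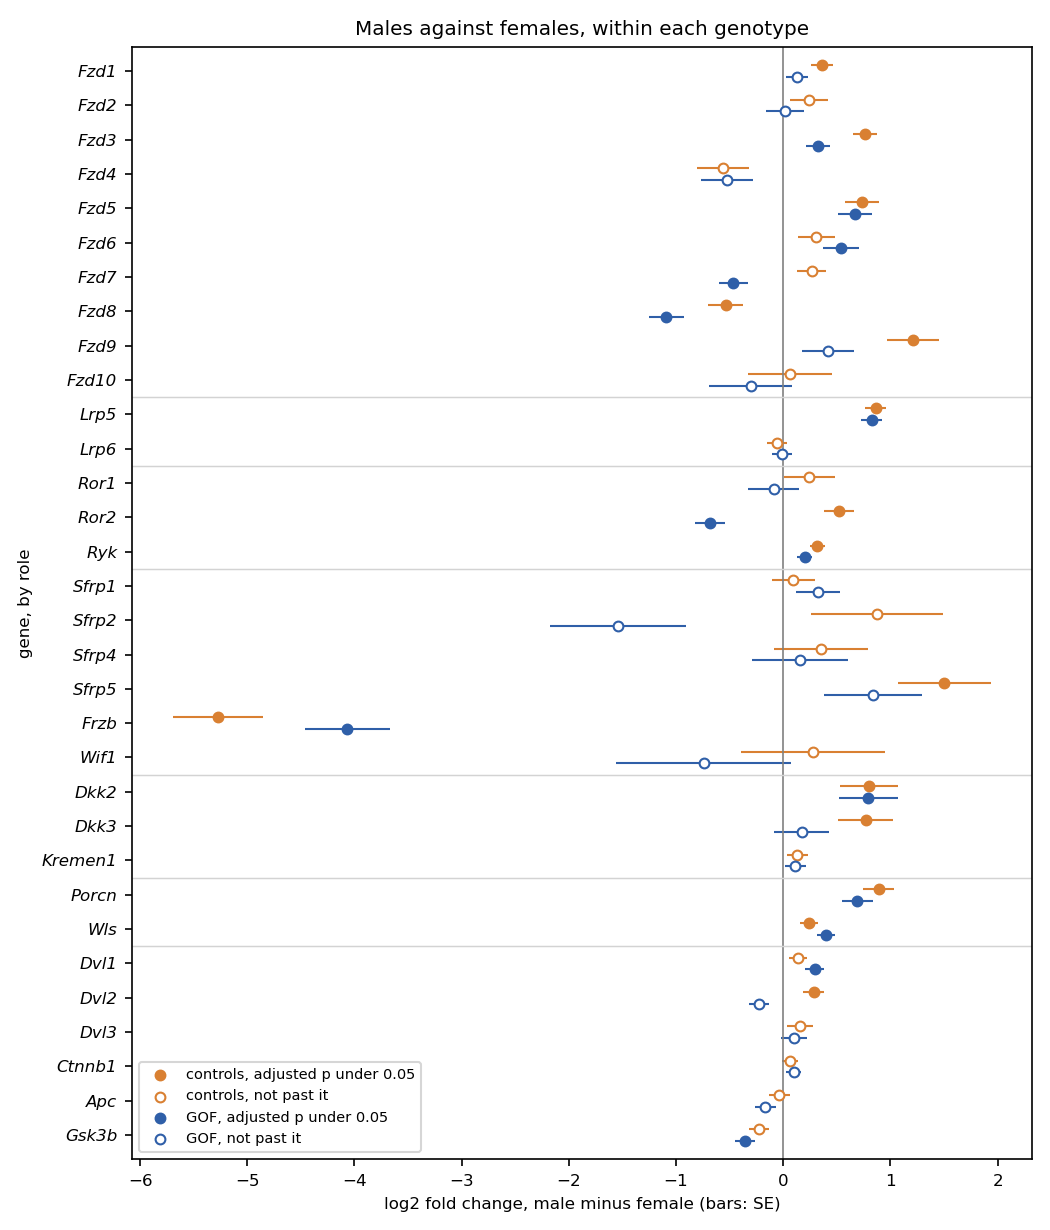
Log2 difference of males against females (x axis) for the 32 tested members (y axis, grouped by role), controls in orange and GOF in blue, with bars of 1 standard error and filled points past an adjusted p of 0.05. Frzb lies at -5.27 in controls and -4.07 in GOF, far left of the rest, and Lrp5 and Porcn lie right of 0.6 in both.

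Frzb was at 460.1 ± 52.3 CPM (SD, n = 4) in female controls and 11.9 ± 6.75 in male controls, with the values of each library given above. No male library reached above 39.3 CPM, and no female library was below 284. The log2 difference was -5.27 ± 0.422 in controls (adjusted p = 1.47e-06, edgeR) and -4.07 ± 0.397 in GOF (adjusted p = 9.36e-06, edgeR). Both were called in every leave-one-out fit and every other setting. Frzb made up 91.02% ± 2.44 (SD, n = 4) of the summed FPKM of the 6 WNT-binding antagonists in female controls and 95.5% ± 2.16 in female GOF. In males its share was 16.9% ± 7.49 in controls and 57.5% ± 12.97 in GOF. The sum without Frzb was 21.7 ± 4.73 FPKM in female controls and 8.43 ± 3.15 in female GOF, and 29.2 ± 8.65 and 7.89 ± 0.743 in males.

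The X-zone, a transient inner cortical layer kept longer in young females than in males, is known in mice of this age. Its 3 markers summed to 5118 to 7538 CPM in control females, 50.9 to 109 in GOF females, 31.8 to 41.1 in control males and 25.1 to 33.5 in GOF males. All 3 fell in GOF females and 2 in GOF males. In controls all 3 were lower in males than in females, and in GOF 1 was. In GOF males 2 of the 3 had at most 3 counts in every library. Frzb in GOF females was at 284 to 485 CPM, in libraries where the X-zone markers were at 50.9 to 109. Of 6 markers of the zona glomerulosa, the outermost cortical zone, 3 fell and 1 rose in GOF females and 6 fell in GOF males. The 1 that rose was Wnt4, counted above among the other pathway genes as well. The 6 markers summed to 1090 to 1195 CPM in control females, 939 to 1142 in GOF females, 1110 to 1540.4 in control males and 447 to 595 in GOF males. Between the sexes, 2 were higher in male than in female controls, and in GOF 2 were higher and 2 lower in males. The part of any zone in the levels of Frzb was not tested.

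Markers of other cell types also differed between the sexes. Of the 8 markers of capsule and stroma, 6 were higher in male than in female controls and 5 in GOF males than in GOF females, with median log2 differences of 0.65 and 0.64 and the summed levels given above. Of 4 macrophage markers 2 were higher in males in each genotype, with sums of 38.9 to 81.3 CPM in control females, 52.7 to 113 in GOF females, 70.7 to 122 in control males and 121 to 269 in GOF males. None of 5 endothelial markers passed in controls and all 5 were higher in GOF males, where they summed to 550.02 to 733 CPM, against 396 to 445 in GOF females. In controls 2 of 5 Schwann cell markers, 1 of 8 medulla markers and 2 of 7 adipocyte markers were higher in males. In GOF no Schwann cell or medulla marker passed, and 2 adipocyte markers were lower in males. Of 4 markers of the zona fasciculata, the middle cortical zone, 2 were higher and 1 lower in GOF males than in GOF females, and none passed in controls. Of 5 steroidogenic genes shared by the cortical zones, 3 were lower in GOF males and 1 in control males. The part of these cell types in the sex differences of the members was not tested.

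Lrp5 (chr19:3584828-3686564, minus strand), a co-receptor of Frizzled, was at 205, 219.6, 245 and 208 CPM in female controls and 465, 401, 344 and 389 in male controls. In GOF it was at 235, 256, 254 and 245 CPM in females and 447, 486, 375 and 445 in males. Every male library lay above every female library. The log2 difference for Lrp5 was 0.86 ± 0.0972 in controls (adjusted p = 2.61e-05, edgeR) and 0.82 ± 0.0971 in GOF (adjusted p = 3e-05, edgeR). Its paralog Lrp6 differed by -0.06 ± 0.0926 in controls (95% interval -0.26 to 0.14) and -0.01 ± 0.0926 in GOF (95% interval -0.21 to 0.19), neither past the threshold.

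Porcn (chrX:8193848-8206525, minus strand), which attaches the lipid to WNT ligands, was at 8.35, 7.74, 5.66 and 8.39 CPM in female controls and 11.9, 14.7, 14.3 and 14.9 in male controls. In GOF it was at 9.64, 6.96, 9.10 and 8.14 CPM in females and 14.9, 11.7, 13.6 and 14.4 in males. Every male library was again above every female one. The log2 difference was 0.89 ± 0.147 in controls (adjusted p = 0.000637, edgeR) and 0.69 ± 0.147 in GOF (adjusted p = 0.00255, edgeR). Wls (chr3:159839672-159938664, plus strand), the carrier of lipid-modified WNTs, was higher in males by 0.24 ± 0.0822 in controls (adjusted p = 0.0465, edgeR) and by 0.40 ± 0.0822 in GOF (adjusted p = 0.00214, edgeR). The control difference in Wls was called in 2 of 16 leave-one-out fits and the GOF difference in all 16.

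Among the Frizzleds, Fzd8 (chr18:9212163-9218136, plus strand) was the only one called lower in males in both genotypes. It was at 44.3, 52.4, 48.8 and 48.5 CPM in female controls and 35.9, 34.5, 32.7 and 30.8 in male controls. In GOF it was at 61.3, 40.2, 73.2 and 60.8 CPM in females and 26.3, 36.5, 21.9 and 25.7 in males. Neither pair of groups overlapped. The log2 difference for Fzd8 was -0.53 ± 0.163 in controls (adjusted p = 0.0281, edgeR) and -1.09 ± 0.164 in GOF (adjusted p = 0.000212, edgeR). The control value lost its call in 6 of 16 leave-one-out fits, with adjusted p up to 0.072, and the interaction of -0.56 ± 0.23 was not past the threshold (adjusted p = 0.186, edgeR).

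Fzd5 was higher in males by 0.74 ± 0.162 in controls (adjusted p = 0.00481, edgeR) and by 0.67 ± 0.162 in GOF (adjusted p = 0.00593, edgeR). Fzd3 was higher by 0.76 ± 0.11 in controls (adjusted p = 0.000223, edgeR), being at 15.9 to 17.1 CPM in female controls and 25.3 to 29.7 in male controls. In GOF the Fzd3 groups overlapped and the difference was 0.32 ± 0.11 (adjusted p = 0.0368, edgeR). Fzd9 was 1.21 ± 0.244 higher in male controls (adjusted p = 0.0027, edgeR) and Fzd6 was 0.54 ± 0.17 higher in GOF males (adjusted p = 0.0261, edgeR). Ror2 changed sides: it was 0.52 ± 0.141 higher in male than female controls (adjusted p = 0.0158, edgeR) and 0.68 ± 0.141 lower in GOF males than GOF females on the log2 scale (-0.68, adjusted p = 0.00212, edgeR).

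Ryk was higher in males by 0.32 ± 0.0679 in controls (adjusted p = 0.00388, edgeR) and by 0.20 ± 0.0678 in GOF (adjusted p = 0.0361, edgeR), and the control difference was called in all 16 leave-one-out fits. Fzd1 was 0.36 ± 0.104 and Dvl2 0.28 ± 0.0964 higher in male controls (adjusted p = 0.0215 and 0.0455, edgeR), and both missed the threshold in GOF. The kinase gene Gsk3b was lower in GOF males than GOF females (-0.36 ± 0.0938, adjusted p = 0.00942, edgeR), with 97.8 to 122 CPM against 134 to 149. Fzd7 was lower as well (-0.47 ± 0.135, adjusted p = 0.0167, edgeR), and Dvl1 was higher (0.29 ± 0.0873, adjusted p = 0.0191, edgeR).

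Several differences between males and females were lost when single libraries were left out. Sfrp5 was 1.50 ± 0.435 higher in male than in female controls (adjusted p = 0.022, edgeR), but 0.74 (adjusted p = 0.104) without male control 2, the liver-containing library, 1.39 (adjusted p = 0.0553) without female control 1 and 1.48 (adjusted p = 0.0545) without female control 2. Dkk3 was 0.77 ± 0.256 higher in male controls (adjusted p = 0.042, edgeR), was called in 3 of 16 leave-one-out fits, and was 0.28 (adjusted p = 0.0728) without male control 2. Dkk2 was 0.80 ± 0.271 higher in male controls (adjusted p = 0.0448, edgeR) and was called in 4 of 16 leave-one-out fits, with 0.62 (adjusted p = 0.138) without male control 2. In GOF Dkk2 was likewise 0.80 ± 0.275 higher in males (adjusted p = 0.0404, edgeR), in groups that overlapped, and that difference was called in 8 of 16 leave-one-out fits, with values from 0.52 to 0.95. With the 3 libraries left out, 8 of the 15 differences in controls remained (Frzb, Lrp5, Porcn, Wls, Ryk, Fzd3, Fzd5 and Fzd9), while 8.70% of all genes were called, against 23.4%. In GOF 11 of the 14 remained, with 27.3% of all genes called, against 29.6%. Of the other control differences, Dvl2 was called in 4, Fzd1 in 13 and Ror2 in 15 of 16 leave-one-out fits. In GOF, Ryk was called in 9, Fzd3 in 10, Fzd6 in 11, Fzd7 in 13 and Dvl1 in 15. The number called in controls fell to 7 without female control 2 and to 9 without female control 3, fits in which 17.6% and 14.3% of all genes were called.

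**Figure D5:**
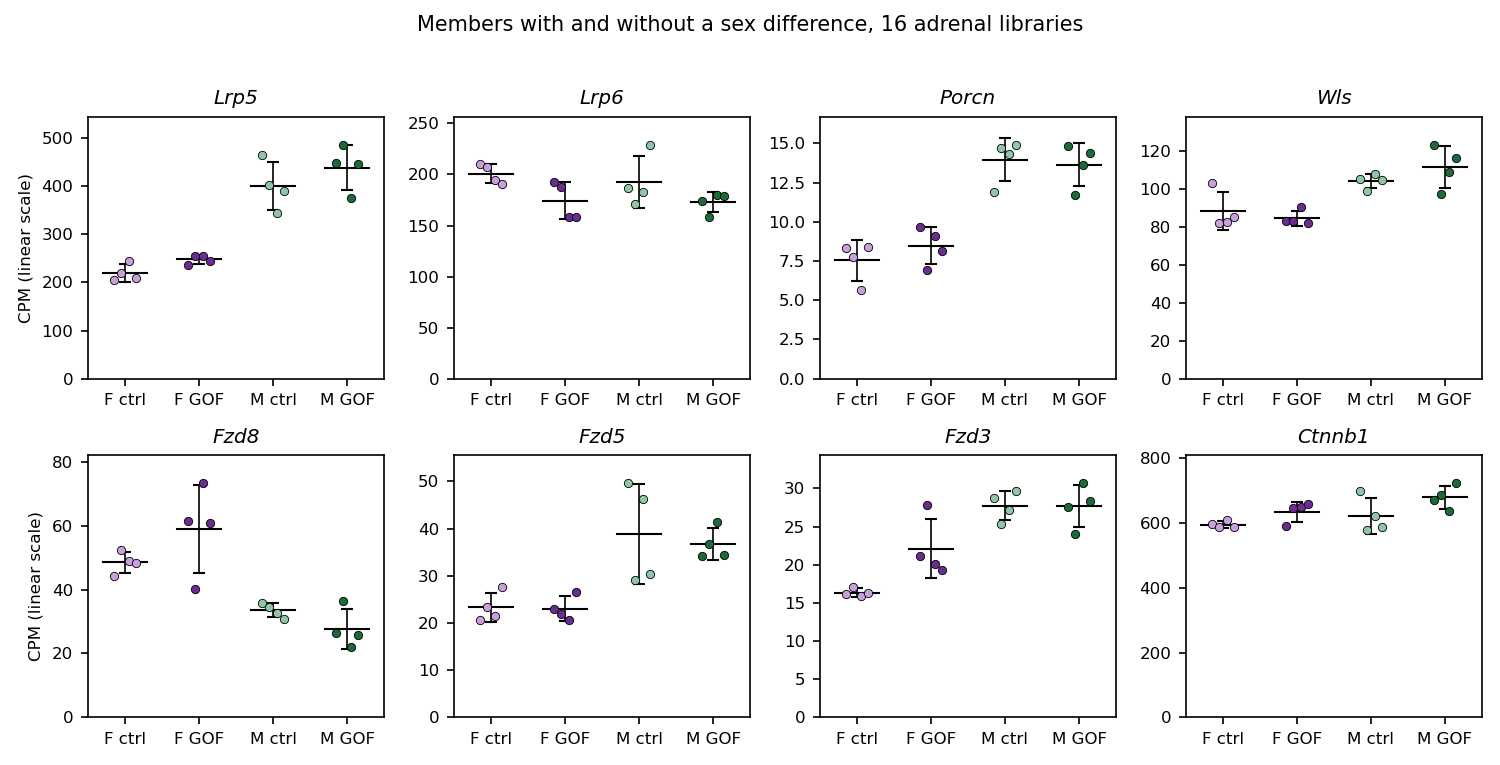
CPM on a linear axis from 0 (y) of Lrp5, Lrp6, Porcn, Wls, Fzd8, Fzd5, Fzd3 and Ctnnb1 in each library (points), by group (x), with mean and SD bars. The 8 female libraries lie at 205 to 256 CPM for Lrp5 and the 8 male ones at 344 to 486, whereas males and females of the same genotype overlap for Lrp6 and for Ctnnb1.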

How the data were processed

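Total RNA of whole adrenal glands from 16 mice was extracted with an RNeasy kit, samples passed an RNA integrity limit of 7.0, and NEBNext Ultra libraries were sequenced as paired reads of 150 bp by Novogene, per the labels' protocols. The deposited values are raw counts per Ensembl gene, made by the authors, and FPKM values deposited by the authors, which scale fragments to gene length and library total. The submitters' processing notes name Bowtie2 2.2.3, TopHat2 2.0.12, HTSeq 0.6.1 and DESeq 1.18.0, without role or order. Genome build, annotation and strand setting are not given in the sources used here. The gene length implied by counts and FPKM matched GENCODE M21's mean over a gene's transcripts within 0.5% for 97.9% of genes and 34 of 35 members (not Apc), so symbols and coordinates follow that annotation, on GRCm38. FPKM divides by a mean transcript length, so a level depends on the isoforms annotated.

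Groups came from the labels, which state that each library is a separate mouse and give each a code of its own, with no replicate number and no batch. In all 24 within-group pairs the counts differed beyond sampling noise (lowest chi-square divided by its degrees of freedom 26.8). Library totals of 31275146 to 43003968 counts limit the precision of members with few counts. Counts were tested with edgeR 4.0.16 (robust quasi-likelihood test, TMM scaling, filterByExpr) in R 4.3.3, in 1 model of all 16 libraries with a mean per group. Of 54838 genes 18214 were tested, and the Benjamini-Hochberg adjustment covered all of these, with a threshold of 0.05. Contrasts were GOF against control in each sex, males against females in each genotype, and their interaction. Groups with at most 3 counts in every library were taken as at the floor. Alternatives were RLE and upper-quartile scaling, other filters, only the groups compared, DESeq2 1.42.0, voom and limma 3.58.1 on log2(FPKM + 1) and log2(FPKM + 0.1), each library left out in turn, and 3 libraries with kidney or liver transcripts left out. Each comparison was refitted without every library in turn, also those outside the groups compared. Leaving out such a library changed only the scaling, the gene filter and the shared spread. The script was tested on simulated data.

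Members named in full were those called with an absolute log2 change of at least 1 and a mean of at least 1 CPM, the most abundant of each role by FPKM, and those called in the interaction. From 74 other pathway genes, the 8 with the largest mean change among those called in both sexes were named. Ror1, Fzd1, Fzd2, Fzd3, Fzd5, Porcn, Lrp6, Gsk3b, Wif1, Dkk1, Dkk4, Kremen2 and Wnt4 were chosen after their values were seen. The members and lists were chosen with earlier results of these data known. A planned comparison of protein sequences was not run.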

Additional observations from a re-analysis of the deposited data

Results flagged for a closer look

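In 8 of 128 member-by-group sets of 4 libraries (6.25%), 1 library stood apart from the other 3. Chance alone gives about 1 in 20. Male control 2, the library with liver transcripts, was at 24.6 CPM for Sfrp5 (others 5.68 to 7.69) and at 152 CPM for Dkk3 (others 54.9 to 61.9). Female control 1, which held kidney transcripts, was at 5.36 CPM for Sfrp2 (others 1.29 to 1.79) and at 103 CPM for Wls (others 81.8 to 85.1). Male control 3 was at 41.4 CPM for Fzd7 (others 32.9 to 34.3), and female GOF 3 was at 90.5 CPM for Wls (others 82.0 to 83.1). Male GOF 4 was at 3.53 CPM for Sfrp4 (others 1.06 to 1.301) and at 98.5 CPM for Apc (others 84.6 to 86.5).

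The effect of GOF differed between the sexes, by the test of the interaction, for Ror2 (-1.21 on the log2 scale), Fzd7 (-0.73) and Dvl2 (-0.51). Ror2 rose in 4 of 4 GOF females above every control and was below every control in 4 of 4 GOF males.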

How the results depend on the processing

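Over all alternatives, none of the 1586 values of called members changed direction: 1337 stayed past the threshold and 249 did not. Of 2684 values of members not called, 59 passed. The count called in GOF females (13) was 7 with the 3 libraries that held kidney or liver transcripts left out, where 24.1% of all genes were called, and 11 to 16 with each library left out. In GOF males (14) it was 10 to 16 with each library left out, and 16 with upper-quartile scaling (5 higher and 11 lower, against 1 and 13). Between male and female controls (15) it was 9 without a filter on low counts, 9 with limma on log2(FPKM + 1) without a filter and 8 without the 3 libraries (8.92%, 10.1% and 8.70% of all genes), and 7 to 14 with each library left out. Between GOF males and females (14) it was 9 to 15 with each library left out, the lowest without male GOF 3. The interaction (3) gave 1, Ror2, with upper-quartile scaling, without a filter, with at least 10 counts in every library, with all 3 limma fits on FPKM and without the 3 libraries, and 1 to 3 with each library left out. The cause was not tested, beyond there being fewer samples where libraries were left out. No paired analysis was possible because each mouse has a code of its own in the labels, no code is shared between groups, and nothing ties a code to a litter, day or batch. On the log2(FPKM + 1) scale the median of all genes in GOF males was 0.10, against 0.01 by edgeR. Depth limits Wif1, Dkk1, Dkk4 and Kremen2, which had too few counts for a steady comparison.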
